A study of Rattus norvegicus with 40 samples.

Results

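The 10 genes described here form the core of the circadian clock and its first output in the liver: Arntl, Clock, Per1, Per2, Per3, Cry1, Cry2, Nr1d1, Nr1d2 and Dbp. They were taken by symbol, and all 10 were found among the 17337 genes of the count files. Liver RNA came from 24 male Fischer 344 rats, 7 weeks old at the start, in 8 groups of 4 rats. Rats given DEN (diethylnitrosamine, a liver carcinogen) received a weekly intraperitoneal dose of 50 mg/kg in olive oil. Their non-tumoral (NT) liver was taken after 8 weeks of DEN, after 14 weeks of DEN, and at 20 weeks, when 14 weeks of DEN had been followed by 6 weeks without it. At 14 and 20 weeks 2 tumor nodules (T) per rat were sequenced beside the NT liver of that rat. Untreated (no DEN) rats of the same age gave liver at 8, 14 and 20 weeks, and whether they received the oil was not stated in the sources used here. All rats were kept in alternating light and darkness with free access to food. The hour of death was likewise not given in the sources used here, nor was the interval since the last injection at 8 and 14 weeks.

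The clock of a liver cell is a feedback loop. CLOCK and ARNTL (also called BMAL1), or NPAS2 in place of CLOCK, bind E-box sequences together and switch on the Per, Cry, Nr1d1, Nr1d2 and Dbp genes. PER and CRY proteins then silence CLOCK and ARNTL, while the nuclear receptors NR1D1 and NR1D2 (REV-ERB alpha and beta) repress Arntl through RORE sequences and DBP acts through D-box sequences. In rodent liver Arntl, Clock and Npas2 transcripts therefore peak when Dbp, Nr1d1, Nr1d2 and Per3 are low, and the swing of Dbp and Nr1d1 over a day is large. A single hour of sampling gives 1 point of this cycle, and feeding times can shift it in the liver.

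The 3 motifs were looked for in the RefSeq promoter windows of build GRCr8, which run from 250 bases before to 50 bases after a gene start. Windows were matched for 9 of the 10 genes, 11 in all, with 2 each for Clock and Nr1d1. The letters searched on both strands were CACGTG for the E-box, TTANGTAA for the D-box, and TAGGTCA or TGGGTCA for the RORE. Of all 33469 windows, 6.42% held the E-box, 2.24% the D-box and 6.6% the RORE. Among the clock genes the windows of Arntl (listed as Bmal1), Per2 and the second one of Nr1d1 held 1 match each, with no overlap between motifs. They are shown because they carry one example of each sequence through which the loop is wired. The matched letters are in capitals.
Arntl, chr1:176766078-176766377, plus strand, RORE: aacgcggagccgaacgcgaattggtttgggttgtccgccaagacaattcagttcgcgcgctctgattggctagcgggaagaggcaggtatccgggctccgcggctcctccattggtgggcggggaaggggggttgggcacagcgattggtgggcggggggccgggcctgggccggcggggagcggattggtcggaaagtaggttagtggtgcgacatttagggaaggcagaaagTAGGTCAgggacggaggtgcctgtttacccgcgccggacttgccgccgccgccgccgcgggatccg
Per2, chr9:99496944-99497243, minus strand, D-box: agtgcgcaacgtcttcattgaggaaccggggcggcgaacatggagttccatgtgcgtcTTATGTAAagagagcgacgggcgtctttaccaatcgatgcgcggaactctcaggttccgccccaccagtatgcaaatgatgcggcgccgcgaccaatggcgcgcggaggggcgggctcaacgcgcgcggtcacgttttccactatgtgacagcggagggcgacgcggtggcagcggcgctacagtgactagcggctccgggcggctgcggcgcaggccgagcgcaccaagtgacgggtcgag
Nr1d1, chr10:84229405-84229704, minus strand, E-box: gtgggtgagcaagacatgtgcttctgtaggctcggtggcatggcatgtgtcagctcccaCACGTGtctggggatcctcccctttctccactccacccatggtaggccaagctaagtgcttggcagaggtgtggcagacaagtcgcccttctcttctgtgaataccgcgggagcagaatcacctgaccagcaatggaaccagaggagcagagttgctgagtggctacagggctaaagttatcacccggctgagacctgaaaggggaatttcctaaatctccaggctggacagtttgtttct
The RORE of Arntl began 16 bases before the gene start, the D-box of Per2 192 bases before it and the E-box of Nr1d1 191 bases before it. The files were made on another build, rn6, so these positions are those of GRCr8 alone.

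Levels are CPM, read pairs of a gene relative to the library total, scaled between samples by the trimmed mean of M values (TMM), with both nodules of a rat summed unless each nodule is named. Differences are log2 fold changes ± standard error (SE) from the quasi-likelihood F test of edgeR, 2-sided, between 4 rats and 4 rats. Adjusted p-values are Benjamini-Hochberg values over all genes tested, and a gene was called at an adjusted p of at most 0.05. Counted pairs per library ran from 20528515 to 160622633, with a median of 30477421. The deepest library was the NT liver of rat H26 at 20 weeks and the shallowest nodule 1 of rat F06 at 14 weeks. The nodule libraries of F06 also had the highest shares of pairs outside annotated exons, 34.5% and 28.2% against a median of 23.9%. No library doubled another, since the spread within groups was at least 12.9 times that of counting alone, as chi-square per degree of freedom.

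Rat F06 of the 14-week DEN group stood apart from the other 3 rats of its group, in NT liver and in nodules alike. Its NT liver held 56.0 CPM of Nr1d1 against 8.58, 10.2 and 12.1 CPM in the others, 2.45 log2 units above the mean log2 CPM of those 3. Its Dbp, the D-box binding activator, was at 12.4 CPM against 3.14, 3.55 and 3.88 CPM. Its Nr1d2 was at 40.4 CPM, where the others held 17.9, 18.3 and 18.4 CPM. All of these repeated in its nodules, with 61.3 CPM of Nr1d1 (others 9.89 to 10.5), 17.5 CPM of Dbp (others 3.58 to 3.81) and 42.9 CPM of Nr1d2 (others 15.2 to 17.7). Per1 and Per3, which code for repressors of the loop, were also highest in this rat, at 8.04 and 3.11 CPM in NT liver and 8.92 and 4.21 CPM in nodules. Arntl and Cry1 were lowest there, Arntl at 34.3 CPM in NT liver and 20.1 CPM in nodules, and Cry1 at 6.07 and 3.99 CPM. Per2 was low in its NT liver alone, at 8.18 CPM against 15.2 to 20.8 CPM, and at 16.2 CPM within the range of the others in nodules. A place outside the range of the other 3 rats was common for F06, at 67.9% of 10067 genes in NT liver and 85.5% in nodules, with 9 and 8 of the 10 clock genes, so a highest or lowest place alone says little.

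A difference of over 1 log2 unit from the mean of the other 3 rats was seen for 4 of the 10 clock genes in the NT liver of F06, against 3.45% of 10067 genes with a mean of at least 1 CPM. In its nodules it was 5 of the 10, against 14.8% of those genes. Of the 30 other rat and tissue values, 4 had 1 such clock gene and 26 had none. The NT liver and both nodules of F06 come from 1 animal and 1 death and count as 1 rat. Tef, a relative of Dbp picked after its values were seen, was at 25.02 CPM in the NT liver of this rat against 13.6 to 15.2 CPM. Differences of the 10 clock genes from untreated liver at 14 weeks are therefore given with and without F06 below.

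**Figure D1:**
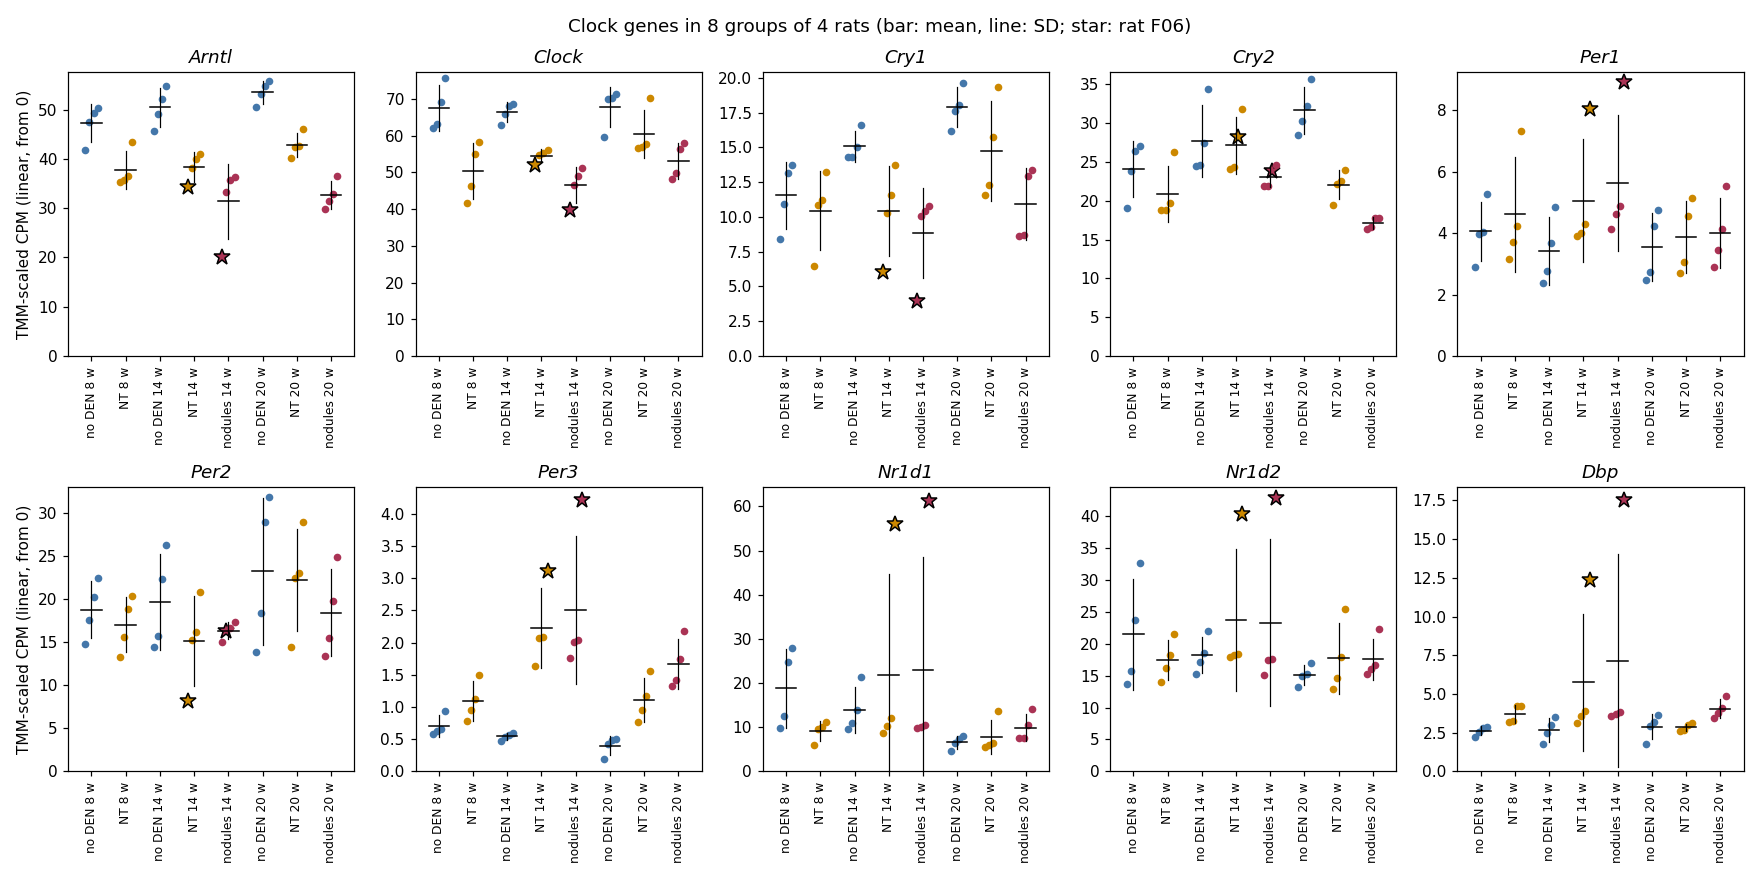
TMM-scaled CPM (linear axes from 0) of the 10 clock genes in the 8 groups, 1 point per rat, with the group mean as a bar and the SD as a line that is clipped at 0. The star is rat F06, which lies at 56.0 CPM of Nr1d1 in NT liver and 61.3 CPM in nodules, while Arntl is lower and Per3 higher in the DEN groups than in the no DEN groups.

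Arntl, the activator without which the loop stops, was lower in NT liver than in liver of untreated rats at every time point. At 8 weeks untreated rats held 41.9, 47.5, 49.4 and 50.4 CPM and NT livers 35.2, 35.7, 36.6 and 43.4 CPM. At 14 weeks the values were 45.7, 49.2, 52.1 and 54.8 CPM without DEN and 34.3, 38.1, 40.0 and 41.0 CPM in NT liver. At 20 weeks they were 50.4, 53.1, 54.8 and 55.8 CPM without DEN and 40.2, 42.4, 42.7 and 46.1 CPM in NT liver. The groups overlapped by 1 rat at 8 weeks and did not overlap at 14 or 20 weeks. The differences were -0.33 ± 0.09, -0.36 ± 0.08 and -0.31 ± 0.07 at 8, 14 and 20 weeks (edgeR, adjusted p = 0.017, 0.00221 and 0.00973). Without rat F06 the 14-week difference was -0.32 ± 0.07 (edgeR, adjusted p = 0.00246).

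In nodules Arntl was lower still. The 4 rats held 20.1, 33.3, 35.8 and 36.4 CPM at 14 weeks and 29.8, 31.4, 32.8 and 36.5 CPM at 20 weeks, all below every untreated rat. Against untreated liver this was -0.70 ± 0.17 at 14 weeks and -0.74 ± 0.09 at 20 weeks (edgeR, adjusted p = 0.00802 and 0.000162). The 14-week value without F06 was -0.52 ± 0.08 (edgeR, adjusted p = 8.54e-05). In order of the group means, nodules at 14 weeks (31.4 ± 7.62 CPM, SD, n = 4) and 20 weeks (32.6 ± 2.88) came first, then NT liver at 8, 14 and 20 weeks (37.7 ± 3.81, 38.3 ± 2.95 and 42.8 ± 2.41), then untreated liver at 8, 14 and 20 weeks (47.3 ± 3.80, 50.4 ± 3.91 and 53.5 ± 2.35). Neighbours in this order differed by no more than the larger of their SDs, apart from 3 steps: nodules at 20 weeks to NT liver at 8 weeks, NT liver at 14 to NT liver at 20 weeks, and NT liver at 20 weeks to untreated liver at 8 weeks.

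Clock, the partner of Arntl, was lower with it. Untreated rats held 62.1 to 75.6 CPM at 8 weeks and NT livers 41.7, 46.4, 54.9 and 58.2 CPM, with no overlap. At 14 weeks untreated rats held 62.9, 65.9, 68.1 and 68.8 CPM, NT livers 52.0, 54.8, 55.3 and 56.1 CPM, and nodules 39.9, 46.7, 49.1 and 51.1 CPM, so that the 3 tissues did not overlap. The 2 differences from untreated liver in NT liver were -0.43 ± 0.11 at 8 weeks and -0.25 ± 0.06 at 14 weeks (edgeR, adjusted p = 0.0151 and 0.00359). At 20 weeks NT liver held 56.6, 57.0, 57.8 and 70.2 CPM against 59.8 to 71.5 CPM without DEN, a difference of -0.16 ± 0.09 that was not called (edgeR, adjusted p = 0.212). Nodules were lower than untreated liver at both times, by -0.53 ± 0.09 and -0.38 ± 0.10 on the log2 scale (edgeR, adjusted p = 0.00117 and 0.00743). Without F06 the 14-week differences of Clock were -0.24 ± 0.06 in NT liver and -0.44 ± 0.07 in nodules, both called (edgeR, adjusted p = 0.00519 and 0.000113).

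Per3, a member of the repressor family, was the clock gene with the largest difference between groups, a fold of 6.27 between the highest and the lowest group mean. Its counts were small in untreated livers, 14 to 24 pairs per library at 8 weeks, 13 to 17 at 14 weeks and 4 to 12 at 20 weeks, which limits the precision of any fold. At 14 weeks untreated rats held 0.463, 0.532, 0.564 and 0.601 CPM, NT livers 1.64, 2.06, 2.09 and 3.11 CPM and nodules 1.76, 2.003, 2.04 and 4.21 CPM. At 20 weeks the values were 0.190, 0.422, 0.481 and 0.504 CPM without DEN, 0.765, 0.955, 1.17 and 1.56 CPM in NT liver and 1.33, 1.42, 1.74 and 2.18 CPM in nodules. At both times every NT liver and nodule lay above every untreated liver of its age. NT liver exceeded untreated liver by 2.07 ± 0.25 at 14 weeks and 1.52 ± 0.34 at 20 weeks (edgeR, adjusted p = 6.96e-05 and 0.00836), and nodules by 2.19 ± 0.34 and 2.02 ± 0.31 (edgeR, adjusted p = 0.000712 and 0.00062). Without F06 the 14-week differences were 1.85 ± 0.21 in NT liver and 1.84 ± 0.19 in nodules (edgeR, adjusted p = 1.56e-05 and 5.65e-06).

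At 8 weeks Per3 was at 0.788, 0.952, 1.13 and 1.5 CPM in NT liver and 0.573, 0.629, 0.660 and 0.943 CPM without DEN. These groups overlapped, and the difference of 0.62 ± 0.27 was not called (edgeR, adjusted p = 0.096). The DEN difference was larger at 14 than at 8 weeks by 1.44 ± 0.37 (edgeR interaction test, adjusted p = 0.0244), the sole call among the 10 clock genes in that test, where 8.96% of all genes were called. Without F06 that call was kept, and in a single fit over all 8 groups it was lost.

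Per1 and Per2, the light- and cue-responsive members of the family, were not called in any comparison of NT liver or nodules with untreated liver. Per1 ran from 2.38 to 5.28 CPM over the 12 untreated rats and from 2.71 to 8.92 CPM in DEN-treated rats, with rat F06 highest. Its largest difference was 0.70 ± 0.31 in nodules at 14 weeks (edgeR, adjusted p = 0.0857), which was 0.41 ± 0.20 without F06 (edgeR, adjusted p = 0.096). Per2 spread widely in untreated livers, with 13.8, 18.4, 28.9 and 31.8 CPM at 20 weeks. Its differences from untreated liver lay between -0.36 and -0.05 on the log2 scale, none of them called (edgeR, adjusted p from 0.218 to 0.915). At 14 weeks Per1 in NT liver was at 0.60 ± 0.29 with F06 and 0.27 ± 0.21 without it, neither called (edgeR, adjusted p = 0.112 and 0.292). Per2 without that rat was at -0.16 ± 0.23 in NT liver and -0.26 ± 0.20 in nodules, neither called (edgeR, adjusted p = 0.601 and 0.289).

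Cry1 and Cry2, the strongest repressors of CLOCK and ARNTL, were lower than in untreated liver in nodules, Cry2 at 20 weeks and Cry1 at both times. For Cry1, untreated rats held 16.2, 17.6, 18.1 and 19.6 CPM at 20 weeks and nodules 8.62, 8.70, 12.97 and 13.4 CPM, with no overlap. NT livers spanned both groups, at 11.6, 12.3, 15.7 and 19.4 CPM. Cry1 in nodules was lower by -0.79 ± 0.27 at 14 weeks and -0.74 ± 0.16 at 20 weeks (edgeR, adjusted p = 0.0343 and 0.00386). The 14-week call in nodules was lost in 6 of 16 other settings, namely without H09, H10, H11, H12 or H22 and with nodule 1 alone. At 14 weeks, without F06, it was lower both in nodules, -0.53 ± 0.08, and in NT liver, -0.32 ± 0.11 (edgeR, adjusted p = 0.000151 and 0.0213), the second of which was not called with F06 (-0.50 ± 0.20, edgeR adjusted p = 0.0638). DESeq2 called that NT difference with F06 kept, as did edgeR without H23.

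For Cry2 the 20-week groups were separate at every step. Untreated rats held 28.5, 30.3, 32.2 and 35.6 CPM, NT livers 19.5, 22.2, 22.6 and 24.0 CPM and nodules 16.3, 16.6, 17.7 and 17.8 CPM. NT liver was lower by -0.51 ± 0.10 and nodules by -0.92 ± 0.09 (edgeR, adjusted p = 0.00391 and 6.32e-05). At 14 weeks the NT difference was 0.01 ± 0.12 and at 8 weeks -0.21 ± 0.13, neither called (edgeR, adjusted p = 0.97 and 0.244). Nodules at 14 weeks were at -0.28 ± 0.12 with F06, not called, and -0.28 ± 0.11 without it, called (edgeR, adjusted p = 0.0779 and 0.0489), while NT liver without it was at -0.03 ± 0.14 (edgeR, adjusted p = 0.878). That the fall in NT liver was larger at 20 than at 14 weeks was not called in the test of the difference itself, -0.51 ± 0.16 (edgeR, adjusted p = 0.135), where 0.738% of all genes were called. Nor was the corresponding difference in nodules called, -0.64 ± 0.15 (edgeR, adjusted p = 0.29), where 0.0862% of all genes were.

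Nr1d1, Nr1d2 and Dbp, genes with a large daily swing, gave few calls. At 8 weeks Nr1d1 was at 9.78, 12.6, 24.7 and 28.03 CPM without DEN and 5.99, 9.48, 9.997 and 11.1 CPM in NT liver, a difference of -1.05 ± 0.34 (edgeR, adjusted p = 0.0399). Dbp at 8 weeks was at 2.22, 2.55, 2.79 and 2.86 CPM without DEN and 3.16, 3.22, 4.20 and 4.21 CPM in NT liver, a difference of 0.50 ± 0.16 (edgeR, adjusted p = 0.0337). In untreated livers at 8 weeks Nr1d1 and Nr1d2 were high in the same 2 rats, H07 and H08, with 23.8 and 32.7 CPM of Nr1d2 against 13.7 and 15.8 CPM in the others. At 14 weeks the differences of these 3 genes rested largely on F06. Nr1d1 stood above untreated liver with that rat, by 0.68 ± 0.68 in NT liver and 0.71 ± 0.64 in nodules, and below it without, by -0.41 ± 0.28 and -0.45 ± 0.25, none of which was called (edgeR, adjusted p = 0.431, 0.38, 0.245 and 0.147). Nr1d2 was at 0.42 ± 0.29 and 0.34 ± 0.33 with F06 and at 0.02 ± 0.11 and -0.12 ± 0.11 without it, likewise not called (edgeR, adjusted p = 0.253, 0.415, 0.904 and 0.356). Dbp exceeded untreated liver by 1.13 ± 0.49 in NT liver and 1.40 ± 0.57 in nodules with that rat (edgeR, adjusted p = 0.0837 and 0.0668), and by 0.42 ± 0.20 and 0.47 ± 0.19 without it (edgeR, adjusted p = 0.0973 and 0.0444). The nodule difference of Dbp was called in 7 of 16 other settings, among them DESeq2 and 1 fit over all 8 groups with F06 kept, and the NT difference in 1 of 14, the fit over all 8 groups. At 20 weeks none of the 3 was called against untreated liver, with Nr1d1 in nodules at 0.56 ± 0.24 (edgeR, adjusted p = 0.0685).

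**Figure D2:**
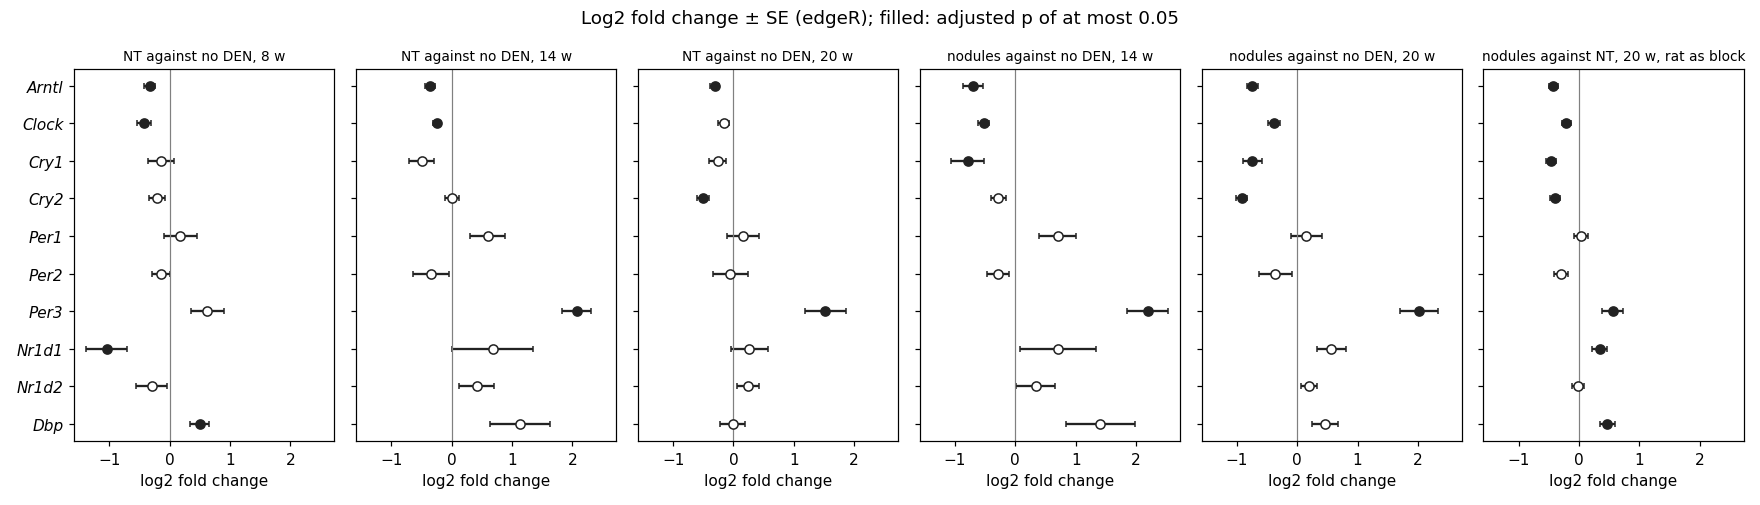
Log2 fold change ± SE from edgeR for each clock gene in 6 comparisons of 4 rats with 4 rats, with filled points for an adjusted p of at most 0.05. Arntl lies left of 0 in all 6 panels and Per3 right of 0, while Nr1d1 and Dbp have wide errors at 14 weeks, where rat F06 is included.

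Counted over the 10 genes, NT liver at 8 weeks had 1 called higher (Dbp) and 3 lower (Arntl, Clock, Nr1d1), where 19.8% of all genes tested were called higher and 15.4% lower. At 14 weeks it was 1 higher (Per3) and 2 lower (Arntl, Clock), against 29.4% and 24.9% of all genes. Without F06 it was 1 higher and 3 lower, against 30.9% and 27.5%. At 20 weeks it was 1 higher (Per3) and 2 lower (Arntl, Cry2), against 16.7% and 10.9%. Nodules against untreated liver gave 1 higher (Per3) and 3 lower (Arntl, Clock, Cry1) at 14 weeks, against 27.4% and 23.3%. Without F06 they gave 2 higher (Per3, Dbp) and 4 lower (with Cry2), against 34.4% and 30.7%. At 20 weeks they gave 1 higher (Per3) and 4 lower (Arntl, Clock, Cry1, Cry2), against 28.2% and 24.4%. Higher calls were thus below the share of all genes, and lower calls exceeded it by fewer than 2 genes at most. Their median log2 fold change was -0.18, 0.21 and -0.03 in NT liver at 8, 14 and 20 weeks and 0.03 and -0.11 in nodules at 14 and 20 weeks, beside medians between -0.01 and 0.02 over all genes.

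NT liver and nodules of an age are compared with the same untreated rats, and the rats of the 3 time points are different animals. At 8 weeks the calls were fragile, as Nr1d1 lost its call under 10 of 14 other settings, Dbp under 8, Arntl under 5 and Clock under 2. Rats numbered F occur among DEN-treated rats alone, and what the letter marks was not stated in the sources used here. With rats numbered H alone, 2 NT livers against 4 untreated, 1 clock gene was called at 8 weeks, Per3 at 0.91 (edgeR, adjusted p = 0.0467), where 25.7% of all genes were. The differences of Arntl, Clock, Nr1d1 and Dbp were then -0.24, -0.24, -0.82 and 0.30, none called (edgeR, adjusted p = 0.111, 0.0918, 0.269 and 0.257).

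Untreated livers at the 3 ages show how far the clock genes ranged without DEN. In edgeR none of the 10 was called between 8 and 14 weeks or between 14 and 20 weeks, where 0% of all genes were called, or between 8 and 20 weeks, where 0.47% were. In that order (14 against 8 weeks, 20 against 14, 20 against 8), 1, 3 and 5 of the 10 genes had an unadjusted p under 0.05, beside 9.9%, 6.42% and 15.8% of all genes. DESeq2 called 0, 1 and 2, beside 0.269%, 0.413% and 2.75% of all genes, namely Nr1d1 from 14 to 20 weeks, and Cry1 and Nr1d1 from 8 to 20 weeks. Nr1d1 was at 18.8 ± 8.95, 13.9 ± 5.18 and 6.56 ± 1.5 CPM (SD, n = 4) at 8, 14 and 20 weeks, and Cry1 at 11.6 ± 2.42, 15.1 ± 1.09 and 17.9 ± 1.43 CPM. Between 8 and 20 weeks this was -1.52 ± 0.38 for Nr1d1 and 0.64 ± 0.14 for Cry1 on the log2 scale (edgeR, adjusted p = 0.141 and 0.0664). The Nr1d1 difference between these untreated groups was larger in size than any of its differences between DEN-treated and untreated rats of 1 age, which ran from -1.05 to 0.71. Arntl moved less, by 0.18 ± 0.07 between these ages (edgeR, adjusted p = 0.243).

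NT liver and nodules of a rat were taken at 1 death, so the hour of sampling does not differ within a rat. Without regard to the rat, edgeR called none of the 10 clock genes between nodules and NT liver at 14 or 20 weeks, where 0% of all genes were called. At an unadjusted p under 0.05 there were 2 and 4 clock genes, beside 11.8% and 24% of all genes. DESeq2 called 0 and 3, beside 0.6% and 9.15% of all genes. With the rat as a block, 3 of the 10 were called higher and 4 lower at 20 weeks, against 13.6% and 15.7% of all genes, and none at 14 weeks, against 0%. At 14 weeks 3 of the 10 had an unadjusted p under 0.05 in that fit, close to the 22% of all genes.

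Lower in nodules at 20 weeks were Arntl (-0.42 ± 0.08), Clock (-0.21 ± 0.08), Cry1 (-0.46 ± 0.09) and Cry2 (-0.39 ± 0.08), with edgeR adjusted p = 0.00163, 0.0493, 0.00173 and 0.00408. Higher were Per3 (0.56 ± 0.17), Nr1d1 (0.34 ± 0.12) and Dbp (0.47 ± 0.12), with edgeR adjusted p = 0.0265, 0.0499 and 0.0133. Of 7 other settings of this fit, Arntl kept its call in all, Cry1 in 6, Cry2 and Dbp in 5, Per3 in 2, and Clock and Nr1d1 in 1. Nr1d2, which peaks with Nr1d1 and Dbp, was at -0.01 ± 0.10 in this fit, Per1 at 0.03 ± 0.12 and Per2 at -0.30 ± 0.12, none of them called (edgeR, adjusted p = 0.929, 0.885 and 0.0817). At 14 weeks with F06 the blocked fit gave -0.35 ± 0.12 for Arntl, -0.26 ± 0.07 for Clock and -0.25 ± 0.07 for Cry2, none called (edgeR, adjusted p = 0.197, 0.175 and 0.18). Without F06 it called Arntl (-0.19 ± 0.05), Clock (-0.19 ± 0.05) and Cry2 (-0.24 ± 0.06) lower, with edgeR adjusted p = 0.0299, 0.0251 and 0.0255, where 4.94% of all genes were called higher and 9.97% lower. The difference between the effects at 20 and 14 weeks was not called for any clock gene in that design, where 0.45% of all genes were called.

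Seen nodule by nodule, with each library scaled on its own, Arntl lay below the NT liver of its rat in 8 of 8 nodules at 14 weeks and 8 of 8 at 20 weeks. Rat F03 at 20 weeks held 48.6 CPM in NT liver and 25.6 and 37.7 CPM in its nodules. The pairs of nodules were 33.1 and 41.3 CPM in H25 (NT 44.4), 32.0 and 35.7 in H26 (NT 43.4) and 34.4 and 28.5 in H28 (NT 41.7). Nodules of a rat differed from each other by a median of 0.29 log2 units, against a median distance from NT liver of -0.39. Cry2 was also lower in 8 of 8 nodules at both times, by a median of -0.23 at 14 weeks and -0.39 at 20 weeks.

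Dbp was higher in 8 of 8 nodules at 20 weeks, by 0.29 to 0.74 log2 units. In rat F03 it was at 3.29 CPM in NT liver and 5.23 and 4.97 CPM in nodules, and in H28 at 2.74, 3.87 and 4.61 CPM. The smallest gaps were in H26, at 3.04 CPM against 3.73 and 4.002 CPM, and H25, at 2.699 CPM against 3.64 and 3.49 CPM. At 14 weeks Dbp was higher in 5 of 8 nodules. Per3 was higher in 7 of 8 nodules at 20 weeks and 5 of 8 at 14 weeks. Per2 had the widest spread, from -1.12 to 0.36 log2 units at 20 weeks, and was lower in 6 of 8 nodules.

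**Figure D3:**
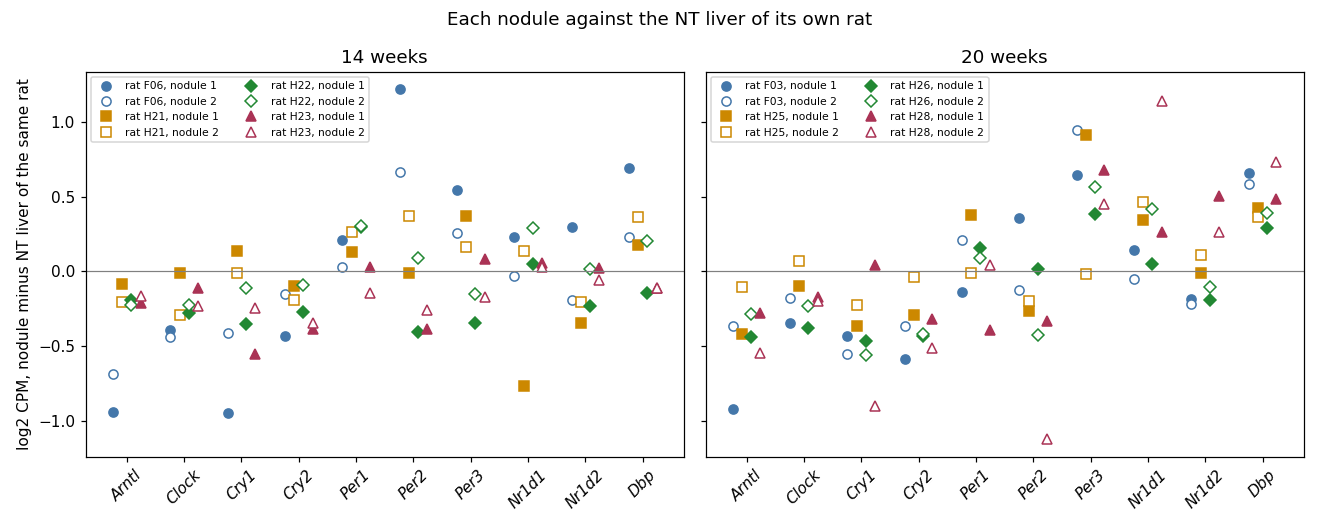
Log2 CPM of each nodule minus that of the NT liver of the same rat, for the 10 clock genes at 14 weeks (left) and 20 weeks (right), with symbols for rats and filled or open points for nodule 1 or 2. All 8 nodules lie below 0 for Arntl and Cry2 at both times, and all 8 lie above 0 for Dbp at 20 weeks.

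The genes that peak at opposite times were also set against each other within each sample, as the mean log2 CPM of Dbp, Nr1d1, Nr1d2 and Per3 minus the mean of Arntl, Clock and Npas2. Untreated livers had means of -3.23 ± 0.37, -3.54 ± 0.08 and -3.97 ± 0.30 (SD, n = 4) at 8, 14 and 20 weeks. NT livers had -2.88 ± 0.09, -2.23 ± 0.80 and -3.27 ± 0.25, and nodules -1.95 ± 1.00 at 14 weeks and -2.52 ± 0.39 at 20 weeks. Rat F06 was at -1.03 in NT liver and -0.45 in nodules, and without it the 14-week means were -2.63 and -2.45. Every NT liver and nodule at 14 and 20 weeks was above every untreated liver of its age, and at 8 weeks the groups overlapped. The mean of Arntl, Clock and Npas2 lay between 5.49 and 5.77 in untreated livers and between 4.76 and 5.53 in samples of DEN-treated rats. The mean of Dbp, Nr1d1, Nr1d2 and Per3 did not differ at 8 weeks by more than its spread, with 2.35 ± 0.40 in untreated and 2.33 ± 0.18 in NT liver (SD, n = 4). At 14 weeks this mean was 2.14 ± 0.10 in untreated liver, 2.97 ± 0.76 in NT liver and 3.03 ± 0.91 in nodules, and at 20 weeks 1.72 ± 0.29, 2.17 ± 0.24 and 2.54 ± 0.21. The 14-week values rested largely on F06, at 4.11 in NT liver and 4.40 in nodules. The other rats of its group held 2.56 to 2.65 in NT liver and 2.55 to 2.61 in nodules. Among these genes Per3, with small counts in untreated liver, differed most from untreated liver at both times. Without F06 the 14-week log2 fold changes of Per3, Dbp, Nr1d1 and Nr1d2 (edgeR) were 1.85, 0.42, -0.41 and 0.02 in NT liver. In nodules they were 1.84, 0.47, -0.45 and -0.12. At 20 weeks they were 1.52, -0.01, 0.26 and 0.24 in NT liver and 2.02, 0.46, 0.56 and 0.19 in nodules. Because the genes were chosen with results known and the hour of each death is unknown here, this contrast is a description without a test. Between DEN-treated and untreated rats, an effect of DEN on these genes and a difference in the hour of sampling or in feeding cannot be told apart.

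**Figure D4:**
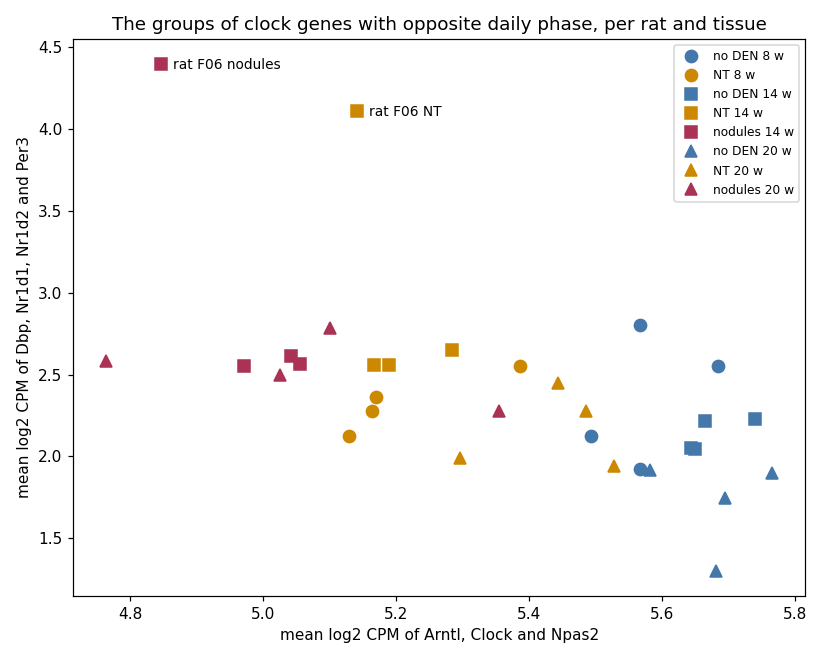
Mean log2 CPM of Dbp, Nr1d1, Nr1d2 and Per3 (vertical) against that of Arntl, Clock and Npas2 (horizontal), 1 point per rat and tissue, with colours for no DEN, NT and nodules and shapes for the time points. Untreated livers lie to the right, nodules to the left, and both samples of rat F06 far above the rest.

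Other parts of the clock were counted with a list of 21 genes, of which 16 were in the files and 14 were tested. In NT liver 1 was called higher and 4 lower at 8 weeks, 2 and 3 at 14 weeks and 2 and 1 at 20 weeks. In nodules against untreated liver it was 2 and 4 at 14 weeks and 2 and 7 at 20 weeks. Beside the shares of all genes given above for these comparisons, the higher calls were fewer in each, and the lower calls were more numerous in NT liver at 8 weeks and in nodules, and fewer in NT liver at 14 and 20 weeks. Npas2, which can stand in for Clock, was lower at 8 weeks (-0.34 ± 0.09) and 14 weeks (-0.72 ± 0.08) in NT liver (edgeR, adjusted p = 0.0177 and 4.33e-05), and in nodules at 14 weeks (-0.85 ± 0.15, edgeR adjusted p = 0.00128). Timeless, a replication fork protein related to a fly clock gene, was higher in NT liver at 8 weeks (0.48 ± 0.14), 14 weeks (0.83 ± 0.14) and 20 weeks (0.47 ± 0.15) and in nodules at 20 weeks (0.77 ± 0.21), with edgeR adjusted p = 0.024, 0.000598, 0.0358 and 0.0119. Nfil3, a repressor at D-box sequences, was lower in nodules at 14 weeks (-0.90 ± 0.17, edgeR adjusted p = 0.00228). With the rat as a block, Nfil3 (-0.58 ± 0.09), Npas2 (-0.58 ± 0.12) and Tef (-0.28 ± 0.08) were lower in nodules than in NT liver at 20 weeks (edgeR, adjusted p = 0.000434, 0.00509 and 0.0231).

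Of 15 liver genes known to follow the clock, 14 were tested. NT liver had 1 higher and 2 lower at 8 weeks, 3 and 1 at 14 weeks, and 2 and 2 at 20 weeks, and nodules 3 and 5 at 14 weeks and 4 and 8 at 20 weeks. In NT liver these counts were below or near the shares of all genes, while in nodules the lower calls exceeded theirs, 23.3% and 24.4%. Wee1, a brake on entry into mitosis that carries E-boxes, was higher in NT liver at 8, 14 and 20 weeks by 0.99 ± 0.15, 1.45 ± 0.17 and 0.62 ± 0.17 (edgeR, adjusted p = 0.000702, 5.96e-05 and 0.0202). Cyp7a1, the rate-limiting enzyme of bile acid synthesis, was lower in nodules at 20 weeks by -2.26 ± 0.37 (edgeR, adjusted p = 0.000878), as was Lpin1, a phosphatase of fat synthesis, by -1.37 ± 0.19 (edgeR, adjusted p = 0.000414).

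Genes of the cues that set the liver clock were counted in the same way, beside the shares of all genes given above. Among 8 feeding genes 4, 4 and 1 were lower in NT liver at 8, 14 and 20 weeks and 5 and 6 in nodules at 14 and 20 weeks, while 0, 1 and 1, and 1 and 1, were higher. The lower calls were above the share of all genes in each comparison, though by less than 1 gene in NT liver at 20 weeks. Their median log2 fold changes were -0.33, -0.93 and -0.61 in NT liver and -1.33 and -1.38 in nodules. Fasn, the fatty acid synthase, was lower in nodules at 20 weeks by -2.10 ± 0.25, and Srebf1, the activator of fat synthesis genes, by -1.39 ± 0.22 (edgeR, adjusted p = 0.000163 and 0.000728). Nr3c1, the glucocorticoid receptor, was lower in NT liver at 14 weeks by -0.69 ± 0.07 and in nodules by -1.15 ± 0.11 (edgeR, adjusted p = 1.92e-05 and 4.65e-05), and 2, 3 and 1 of the 6 genes of this hormone were lower in NT liver at the 3 times, with 1 higher at 14 weeks. In nodules 3 and 4 of the 6 were lower at 14 and 20 weeks. These lower calls, too, exceeded the share of all genes by less than 1 gene in NT liver at 20 weeks. Rbm3, an RNA-binding protein raised by cooling, was higher in NT liver at all 3 times, by 0.79 ± 0.10, 0.75 ± 0.16 and 0.61 ± 0.14 (edgeR, adjusted p = 0.000255, 0.00309 and 0.0106). It was the sole gene called higher in NT liver among the 5 tested of the temperature list, near the share of all genes, and Hsph1, a heat shock protein, was called lower there at 8 weeks, by -0.30 ± 0.08 (edgeR, adjusted p = 0.0163). In nodules 3 of 6 were called higher at each time, beside 27.4% and 28.2% of all genes, and 0 lower.

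Cell type markers differed between the same groups. Summed over 8 hepatocyte markers, untreated livers held 272360 to 318116 CPM, NT livers 180847 to 282711 CPM and nodules 155607 to 220673 CPM. Summed over 6 markers of dividing cells, untreated livers held 14.3 to 30.1 CPM and all samples of DEN-treated rats 23.9 to 207 CPM. Markers of bile duct cells, 5 in the files, were at 89.4 to 147 CPM in untreated livers and 125 to 321 CPM with DEN, and 6 endothelial markers at 58.8 to 156 CPM and 159 to 226 CPM. Fibroblast and stellate cell markers, 7 in the sum, lay at 160 to 238 CPM and 225 to 477 CPM. The 6 macrophage markers overlapped widely, at 218 to 655 CPM and 260 to 660 CPM, and the 6 lymphocyte markers lay at 2.06 to 4.01 CPM and 2.95 to 8.42 CPM. Of the 8 fibroblast and stellate cell markers in the files, the 7 in the sum were those with any counts. No marker in the sums was at 0 in all libraries of a group, and hepatocyte markers led in every group. The part of these cells in the clock gene differences was not tested, and in whole tissue fewer cells of a type and less RNA per cell cannot be told apart.

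By likeness of log2 CPM over the 8 group means, the genes nearest to Arntl among 10067 with a mean of at least 1 CPM were Cdc37l1, Tram1, Ltn1, Atg4c and Tmcc3, with Pearson r of 0.997, 0.997, 0.997, 0.994 and 0.994. Those nearest to Dbp were RGD1311946, Ezh2, Slc7a5, Tmpo and Cyp20a1, with r of 0.989, 0.989, 0.976, 0.976 and 0.974. The Dbp order rested on F06, since without that rat these 5 genes had r of 0.898, 0.866, 0.847, 0.839 and 0.817 and fell to places from 385 to 1490. The r of the 5 genes nearest to Arntl was then 0.978 to 0.997, at places from 2 to 67. Among the clock genes themselves Arntl went with Clock over the group means (r = 0.94) and against Per3 (r = -0.92) and Dbp (r = -0.87), and without F06 these were 0.92, -0.90 and -0.92. These are 8 points that share rats and scaling, without a test. Within groups, over the deviations of 32 samples from their group means, Arntl and Dbp had r = -0.75 and Nr1d1 and Dbp 0.72, and without F06, over 30 samples, -0.29 and 0.01.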

How the data were processed

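Poly(A) RNA of 40 liver samples from 24 rats was sequenced as strand-specific pairs. The authors aligned the pairs to rn6 with STAR 2.7.1a and deposited raw counts per gene, made with HTSeq on exons (reverse strand, pairs fully inside a gene, no pairs with several alignments), without normalization. The libraries carried no molecular identifiers, and Per3 rested on few pairs. Gene symbols were taken as in the files.

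Groups and rats came from the sample labels. The 2 nodules of each rat were summed to 1 value, giving 4 rats per group. Every fit held just the groups under comparison, with edgeR 4.0.16 in R 4.3.3 (filterByExpr, TMM, robust quasi-likelihood F test, 2-sided), with Benjamini-Hochberg adjustment over all genes tested and calls at 0.05. Log2 CPM used a prior count of 2. NT liver and nodules carry the same rat number, and deviations from group means correlated within rats (r = 0.387 to 0.649 over 10067 genes), so fits with the rat as a block are given for them. The submitters' processing notes name DESeq2 1.22.2, and no design was stated. DESeq2 1.42.0, RLE scaling, no low-count filter, 1 fit over all groups, single nodules, the thresholds of the study and leaving out each rat were alternatives. The fits were tested on simulated data.

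The genes named were all 10 clock genes in every comparison and, per other list and comparison, at most the 3 called genes with the smallest adjusted p. Some genes that this rule names are not reported here. Likeness took the 5 nearest genes to Arntl and to Dbp. The clock genes and the lists were chosen with earlier results of these data known. Promoter sequences are from RefSeq. The samples may come from any hour, and p-values cover the spread between these rats.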

Additional observations from a re-analysis of the deposited data

Results flagged for a closer look

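Within groups of 4 rats the 10 clock genes gave 80 sets of values, of which 15 had a highest or lowest rat far from the other 3 by Dixon's rule, where chance flags about 1 in 20 sets. Of these 15, 10 were rat F06 at 14 weeks. In its NT liver they were Nr1d1 at 56.0 CPM, Nr1d2 at 40.4 CPM, Dbp at 12.4 CPM and Per1 at 8.04 CPM. In its nodules they were Nr1d1 at 61.3 CPM, Nr1d2 at 42.9 CPM, Dbp at 17.5 CPM, Per1 at 8.92 CPM and Per3 at 4.21 CPM, all high, and Cry1 at 3.99 CPM, low. Nodule 1 of this rat was the shallowest library, and its nodules 1 and 2 had the highest shares of pairs outside exons of the 40 libraries, 34.5% and 28.2%, while its NT library was near the median in both measures. The part of library quality in these values was not tested, and all 3 samples came from 1 death at an hour not given.

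The other 5 were spread over as many rats. Arntl was high in NT liver of H17 at 8 weeks (43.4 CPM), and Cry2 in NT liver of F10 at 8 weeks (26.3 CPM). Clock was high in NT liver of H26 (70.2 CPM), the deepest library, and low in untreated liver of H13 (59.8 CPM), both at 20 weeks. Nr1d1 was high in NT liver of F03 at 20 weeks (13.6 CPM).

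The difference of Per3 between NT and untreated liver was larger at 14 than at 8 weeks by 1.44 on the log2 scale, tested as an interaction in edgeR (adjusted p = 0.0244).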

How the results depend on the processing

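No clock gene changed direction past the threshold under any alternative, and RLE scaling changed no call outside the fits with the rat as a block. The share of all genes called under the same setting stands in brackets. The count of clock genes called in NT liver at 8 weeks, 4 of 10 (35.3%), became 2 in a fit over all 8 groups (32.4%), 0 at the thresholds of the study (7.91%), 1 with rats numbered H alone (25.7%), and 1 (without F09, 26.8%) to 4 when a rat was left out (24.6% to 42.9%). At the thresholds of the study NT liver gave 1 at 14 weeks (15.2%) and 1 at 20 weeks (5.22%). Nodules against NT liver at 20 weeks, 0 without regard to the rat, gave 3 by DESeq2 (9.15%), 2 in a fit over all groups (14.8%), 1 with nodule 1 alone (2.15%), and 0 to 2 when a rat was left out, 2 being without H25 (3.89%). With the rat as a block, a pairing that comes from the labels, 7 were called (29.3%), 2 with nodule 1 alone (11.7%), 3 with nodule 2 alone (17.1%), and 3 (without H26, 12.4%) to 6 when a rat was left out, with 4 without H28 (19.7%). At 14 weeks that fit called 0 to 3, 3 being without F06 (14.9%). Untreated liver gave 1 by DESeq2 from 14 to 20 weeks (0.413%), and from 8 to 20 weeks 2 by DESeq2 (2.75%) and 1 without a low-count filter (0.532%). At 14 weeks some clock genes that were not called became so: in nodules Dbp in 7 of 16 settings, Cry2 in 2 and Per1 in 1, and in NT liver Cry1 in 4 of 14 and Dbp and Per1 in 1 each. At 20 weeks Nr1d1 did in nodules in 3 of 16 and Cry1 in NT liver in 1 of 14. The larger Per3 difference at 14 than at 8 weeks gave 0 in a fit over all groups (1.3%, against 8.96%). The cause was not tested for any of these. Leaving out a rat in fits with the rat as a block, single nodules in those fits, RLE scaling in them, interactions without F06, and likeness and correlations without F06 were chosen after seeing the data. With 4 rats per group, 1 rat moves a call, and in untreated livers Per3 had as few as 4 pairs.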
